A study of Caenorhabditis elegans with 6 samples.

Results

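The astacins are a family of secreted zinc metalloproteases, and in C. elegans most of the genes that encode them carry the symbol nas (nematode astacin) and a number. The genes described here are all those with such a symbol in the annotation of the Affymetrix C. elegans Genome Array that have a probe set naming that gene alone. They are 33 of the 17138 genes measured in this way. The RefSeq gene table lists 37 nas symbols. nas-3, nas-23 and nas-40 have no probe set of their own in the annotation used here, and nas-2 has only one that it shares with Y19D10A.6, with signals of 10.2, 6.5 and 7.4 in hs::ΔNTbar-1 animals and 9.5, 6.4 and 7.0 in hs::control animals. A further 3 genes (nas-9, nas-22 and nas-32) have more than 1 probe set of their own, and the brightest over the 6 arrays stands for the gene.

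Astacins are made as inactive precursors and become active once a propeptide is cut off. Nematodes have many more of them than most animals, and those with a known role act outside the cell, on procollagens, on the cuticle that is shed at each molt, on the egg shell or on the cuticle that lines the pharynx. The family is divided by what follows the catalytic domain. Subgroup I (nas-1 to nas-5) has little else, subgroup II (nas-6 to nas-15) has ShK-type domains, and subgroup III (nas-16 to nas-30) has EGF and CUB domains. Subgroup IV (nas-31 and nas-32) has EGF, CUB and ShK-type domains, subgroup V (nas-33 to nas-38) adds thrombospondin type 1 repeats to EGF and CUB, and subgroup VI (nas-39) is built like tolloid and BMP1 of other animals, with several CUB and EGF domains.

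The study asked which genes respond when the Wnt pathway is switched on through the beta-catenin BAR-1 in larvae at the L2/L3 molt. The 3 hs::ΔNTbar-1 samples are from a single strain with the integrated array huIs7, in which the heat shock promoter of hsp16.2 drives MycΔNTbar-1, a Myc-tagged BAR-1 without its amino terminus. The 3 hs::control samples are from a single strain made in dpy-20(e1282), with the integrated array deIs14, which has the empty heat shock vector pPD49.78. Both arrays also hold mec-7::GFP and dpy-20(+), and both strains were heat shocked for 30 min, at 30° in the labels and at 38° in the study's methods. RNA came from whole animals, labelled as young L3, after 1 hr of recovery. Because each condition is 1 strain and no sample came from unheated animals, other fixed differences between the strains, and any part of a change that depends on heat shock, cannot be told apart from BAR-1 activation. In whole-animal RNA, fewer cells of a type and less RNA per cell cannot be told apart either.

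bar-1 itself had signals of 7754.9, 20991.2 and 16009.4 in hs::ΔNTbar-1 animals and 586.3, 519.5 and 574.7 in hs::control animals, so the arrays matched their labels. The log2 fold change was 4.58 ± 0.36 (SE), with an adjusted p of 0.00775 in limma. The median signal was between 134 and 145 on the hs::ΔNTbar-1 arrays and between 131 and 143 on the hs::control arrays, and arrays correlated at r = 0.979 to 0.981 within and 0.973 to 0.976 between groups. Signals are linear intensities with no fixed unit. A probe set's signal depends on its own binding, so levels are compared between arrays and not between genes. Fold changes below are hs::ΔNTbar-1 minus hs::control on log2(signal + 16), a scale that understates changes of dim genes. Genes of adult yolk (vit-2, vit-4, vit-5 and vit-6) averaged 7.55 to 153 in signal over all arrays, with vit-6 at 153 and the others under 100.

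No nas gene passed limma's test for a difference between hs::ΔNTbar-1 and hs::control animals. Of the 33, 16 had a positive and 17 a negative log2 fold change, the median was -0.02 against 0.00 over all 17138 genes, and single genes lay between -1.45 (nas-1) and 0.88 (nas-24). At an adjusted p under 0.05 in limma, 0 were higher and 0 lower, with adjusted p-values of 0.0726 to 0.992, while 0.443% of all genes were called higher and 0.286% lower. At an unadjusted p under 0.05 in limma, 7 were higher (21.2%) and 2 lower (6.06%), beside 7.25% and 6.69% of all genes. The study's own criteria ask for a change of at least 2-fold, for p no higher than 0.05 in the methods' test, and for 2 or more of the 3 arrays to lie to one side of the control mean. They were applied here to log2(signal + 16), which may not be the values that the study used. By these criteria 0 nas genes were higher and 1, nas-1, was lower. Applied in this way they took 0.782% of all genes as higher and 0.572% as lower.

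More nas genes than these were separated without overlap. In 8 of them (24.2%) each hs::ΔNTbar-1 array was above each hs::control array, and in 2 (6.06%) each was below, whereas 11% of all genes were separated upward and 10.5% downward. The higher genes were nas-4, nas-6, nas-13, nas-14, nas-15, nas-24, nas-29 and nas-37, and the lower ones nas-1 and nas-25. With 3 arrays a group, the smallest p that an exact permutation test can reach for any one gene is 0.1. Leaving out 1 array makes separation easier. The counts were then 8 to 10 upward and 2 to 6 downward, and they cannot be set beside the shares above. The summed signal of all 33 was 7189.4 to 7700.4 on the hs::ΔNTbar-1 arrays and 5554.5 to 6742.5 on the hs::control arrays, a sum to which the brightest probe sets contribute most. Set against the control mean, the median nas gene was at 0.05, 0.16 and -0.01 on the log2 scale on hs::ΔNTbar-1 arrays 1, 2 and 3, with 19, 21 and 16 of the 33 above it.

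**Figure D1:**
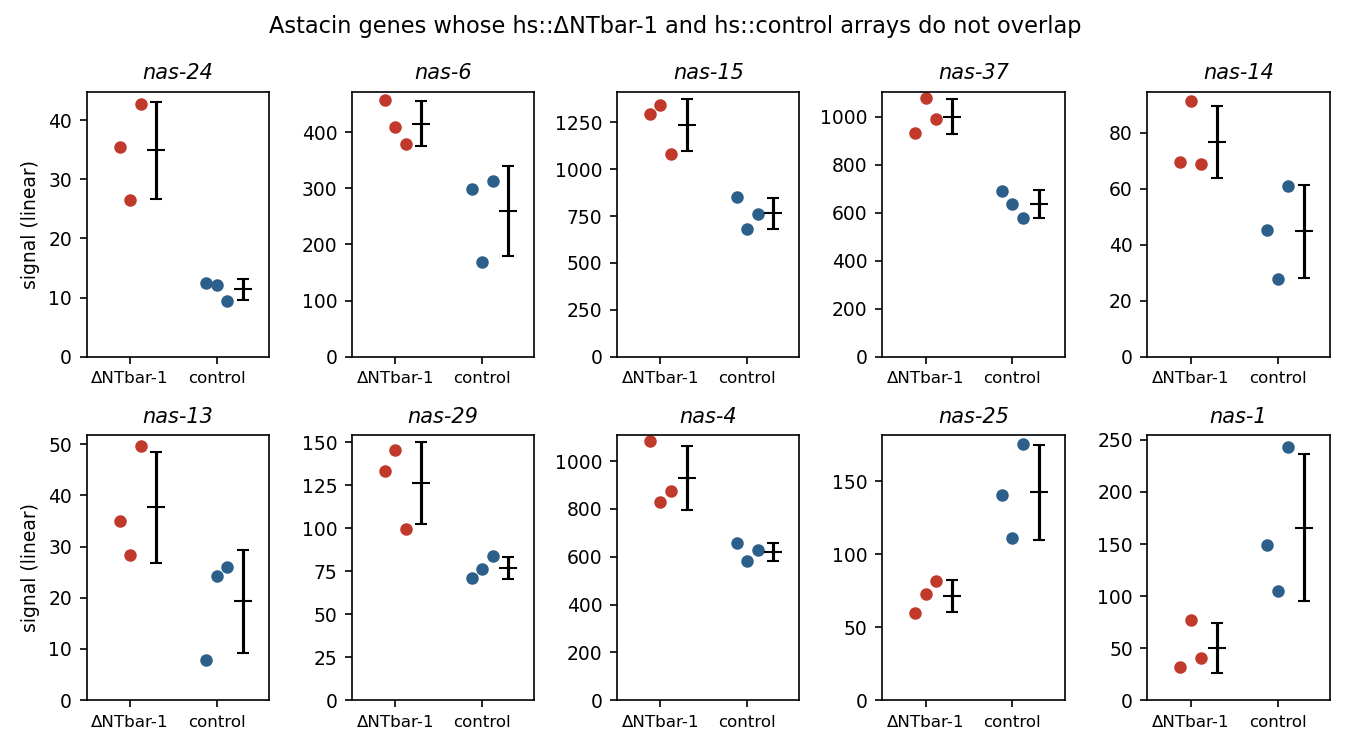
Signal (linear intensity, y axis from 0, own scale in each panel) of the 10 nas genes whose hs::ΔNTbar-1 arrays (red) and hs::control arrays (blue) did not overlap, with bars for the mean ± SD of 3 arrays. The top 5 and nas-13, nas-29 and nas-4 were higher in hs::ΔNTbar-1 animals, and nas-25 and nas-1 were lower.

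Brightness bears on how many of these genes could be measured well. The mean over the 6 arrays was under 100 for 17 of the 33 nas genes, and in each of those 17 all 6 arrays were under 100. Between 43.1% and 45.6% of all probe sets on an array had signals below that value. Among the 16 brighter nas genes, 5 were separated upward (31.2%), beside 15.5% of all genes of that brightness, and 2 downward (12.5%), beside 14.4%. Among the 17 dim ones, 3 were separated upward (17.6%), beside 5.43% of all dim genes, and 0 downward, beside 5.69%. At an unadjusted p under 0.05 in limma, 2 of the 17 were higher (11.8%) and 0 lower, beside 4.47% and 4.83% of all dim genes. No detection calls were used, so whether a dim probe set was above background is not known.

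Subgroup II held 4 of the 8 genes separated upward, 40% of its members beside 11% of all genes. All 10 of its members were measured, 8 had a positive log2 fold change, 0 were separated downward (10.5% of all genes), and the median was 0.23. The summed signal of the subgroup was 3565.2 to 3746.9 on the hs::ΔNTbar-1 arrays, above the 2480.2 to 3000.5 of the hs::control arrays. The bright probe sets of nas-11 and nas-15 contribute most to this sum, so it says little of the other members. None passed limma's test at an adjusted p under 0.05, and 3 were higher and 0 lower at an unadjusted p under 0.05, beside 7.25% and 6.69% of all genes.

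nas-15, on the X chromosome, had signals of 1291.9, 1341.5 and 1079.1 in hs::ΔNTbar-1 animals and 850.0, 682.7 and 758.9 in hs::control animals. The groups did not overlap, and the log2 fold change was 0.68 ± 0.14 (SE), a ratio of means of 1.62, with an adjusted p of 0.123 in limma. nas-6 acts in the pharynx, where it is needed to form the grinder, the cuticular teeth that crush bacteria. It had 457.1, 409.7 and 378.6 in hs::ΔNTbar-1 animals against 299.4, 168.1 and 312.4 in hs::control animals. Every hs::ΔNTbar-1 array was above every hs::control array, but control array 2 lay far below the other controls, and the log2 fold change of 0.69 ± 0.24, with an adjusted p of 0.302 in limma, was 0.42 without that array. nas-7, which acts with nas-6 in the grinder, had 374.3, 404.9 and 329.6 in hs::ΔNTbar-1 animals and 399.4, 272.9 and 427.2 in hs::control animals. Here the groups overlapped throughout, and the log2 fold change was 0.03, with a 95% interval of -0.43 to 0.50. Whether nas-6 and nas-7 differ in their response was not tested.

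Pharyngeal markers had mostly lower signals in hs::ΔNTbar-1 animals. All 5 pharyngeal muscle markers (myo-1, myo-2, tnc-2, tnt-4 and ceh-22) had a negative log2 fold change, with a median of -0.16, while other probe sets of myo-1 and ceh-22 gave 0.23 and 0.26, that of ceh-22 without overlap. The probe sets used for the 5 genes had a summed signal of 15949.7 to 17662.6 on the hs::ΔNTbar-1 arrays and 19896.1 to 21448.1 on the hs::control arrays. Of 6 pharyngeal gland markers 5 were negative, with a median of -0.49, and the sums were 4636.6 to 4843.5 and 6123.9 to 8937.1 in hs::ΔNTbar-1 and hs::control animals. phat-5, a gland marker, met the study's criteria as lower (388.5, 512.6 and 677.9 against 1444.3, 1298.9 and 1827.9 in hs::control animals, a log2 fold change of -1.53, adjusted p of 0.0581 in limma). No marker of either list was at 0. The part of pharyngeal cell numbers in the nas-6 values was not tested.

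The other members of subgroup II were mixed. nas-14 had 69.7, 91.4 and 68.7 in hs::ΔNTbar-1 animals and 45.4, 27.9 and 61.0 in hs::control animals, separated by a narrow gap, with a log2 fold change of 0.64 ± 0.23 and an adjusted p of 0.309 in limma. nas-13 was dimmer still, with 34.9, 28.4 and 49.6 against 7.8, 24.2 and 26.0 in hs::control animals, and the fit's log2 fold change of 0.63 ± 0.27 had an adjusted p of 0.382 in limma. In both genes the hs::control arrays varied among themselves by a large part of the difference, and the values were 0.42 for nas-14 without control array 2 and 0.37 for nas-13 without control array 1. nas-11 was bright on every array, with 1177.0, 922.6 and 1384.8 in hs::ΔNTbar-1 animals and 961.0, 894.2 and 926.9 in hs::control animals. One hs::ΔNTbar-1 array lay within the control range, and the log2 fold change of 0.30 had a 95% interval of -0.10 to 0.70. It was 0.17 without hs::ΔNTbar-1 array 3 and 0.46 without array 2. nas-9 had the most negative value of the subgroup, with 118.9, 186.4 and 118.1 in hs::ΔNTbar-1 animals and 245.0, 196.1 and 172.4 in hs::control animals, a log2 fold change of -0.50 ± 0.21 and an adjusted p of 0.384 in limma. Its other probe set gave -0.30. nas-8, nas-10 and nas-12 had values of -0.12, 0.14 and 0.16 with overlapping groups.

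Of the 3 measured members of subgroup I, 1 was separated upward and 1 downward (33.3% each, beside 11% and 10.5% of all genes). nas-1 had 32.3, 77.0 and 40.6 in hs::ΔNTbar-1 animals against 149.4, 104.8 and 243.4 in hs::control animals, the largest change of the family in size on the log2 scale. Every hs::ΔNTbar-1 array was below every hs::control array, although both groups were spread widely (50.0 ± 23.8 and 165.9 ± 70.8, mean ± SD, n = 3 each). The log2 fold change was -1.45 ± 0.35, with an adjusted p of 0.166 in limma over all arrays and a p of 0.0277 in the methods' test. nas-1 met the study's criteria with all 6 arrays, and still without hs::ΔNTbar-1 array 2 or control array 2. It no longer met them without hs::ΔNTbar-1 array 1 or 3 or without control array 1 or 3, when the count of lower nas genes was 0.

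nas-4 had 1081.7, 828.7 and 874.3 in hs::ΔNTbar-1 animals and 655.8, 581.1 and 627.0 in hs::control animals. The groups were well apart, with means of 928 ± 135 and 621 ± 37.7 (SD, n = 3 each), a log2 fold change of 0.56 ± 0.14 and an adjusted p of 0.173 in limma. nas-5, the third measured member, had 59.9, 61.3 and 72.0 in hs::ΔNTbar-1 animals within the control range of 29.6 to 99.8.

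Subgroup III is the largest, with 13 members measured, 10 of them under 100 in mean signal. Its median log2 fold change was -0.04, with 4 positive and 9 negative. In it 2 genes were separated upward (15.4%, beside 11% of all genes) and 1 downward (7.69%, beside 10.5%). toh-1, described further on, belongs to the same subgroup under another symbol, and it was separated downward. nas-24 had the lowest adjusted p of the family, at low signal. It had 35.4, 26.5 and 42.8 in hs::ΔNTbar-1 animals and 12.5, 12.2 and 9.4 in hs::control animals, and the gap between the groups was wider than the spread among the controls. Its log2 fold change was 0.88 ± 0.15, with an adjusted p of 0.0726 in limma. With the pseudocount of 16 this is a 1.85-fold change, and without a pseudocount the mean signals had a ratio of 3.07. nas-29 had 133.5, 145.4 and 99.6 against 70.8, 76.3 and 83.6 in hs::control animals, a log2 fold change of 0.60 ± 0.16 with an adjusted p of 0.189 in limma.

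nas-25 was the second gene of the family to be separated downward. It had 59.6, 72.8 and 81.5 in hs::ΔNTbar-1 animals and 140.4, 111.2 and 175.7 in hs::control animals, a log2 fold change of -0.85 ± 0.19 with an adjusted p of 0.142 in limma. Its change of 1.80-fold on the scale with the pseudocount fell short of the 2-fold of the study's criteria. nas-27 had nearly as large a mean difference, at -0.82, but it came from 1 array. Its signals were 87.9, 55.2 and 5.0 in hs::ΔNTbar-1 animals and 94.5, 72.1 and 70.9 in hs::control animals, with an adjusted p of 0.601 in limma. The log2 fold change was -0.14 without hs::ΔNTbar-1 array 3 and -1.29 without array 1. nas-30 was lower on average but overlapped, with 113.6, 187.7 and 129.3 against 235.1, 164.4 and 240.5 in hs::control animals (a log2 fold change of -0.53, adjusted p of 0.382 in limma).

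The remaining members of the subgroup were dim, and most lie close together on chromosome V. In the RefSeq gene order nas-18, nas-17 and nas-19 follow each other with 0 protein-coding genes between them, nas-16 is 1 gene away from nas-18, and nas-20, nas-21 and nas-22 are likewise direct neighbours. The first cluster had log2 fold changes of 0.26 (nas-16), 0.63 (nas-18), -0.05 (nas-17) and -0.24 (nas-19), and the second had -0.02 (nas-20), -0.13 (nas-21) and -0.02 (nas-22). In all 7 the groups overlapped and the adjusted p was 0.586 or more in limma. nas-18, for instance, had 38.5, 62.7 and 51.8 in hs::ΔNTbar-1 animals, and its hs::control arrays ran through 6.9, 28.8 and 59.7. Its value was 0.19 without control array 1 and 1.05 without control array 3. nas-16 was at 0.44 without hs::ΔNTbar-1 array 1 and 0.16 without array 3. These neighbours are similar genes, and how far their probe sets bind each other's transcripts was not tested. nas-28, the last of the subgroup, was at -0.04.

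Subgroup V holds the genes best known for molting. Of its 4 members measured under a nas symbol, 1 was separated upward (25%, beside 11% of all genes) and 0 downward (beside 10.5%). dpy-31 and hch-1, described further on, belong to the same subgroup under other symbols, and both were separated downward. nas-36 and nas-37 are needed to shed the old cuticle at each molt, and loss of either leaves larvae caught in it. nas-37 had 932.5, 1078.6 and 990.4 in hs::ΔNTbar-1 animals and 692.4, 638.6 and 578.6 in hs::control animals. The groups stood far apart relative to their spread, at 1000.5 ± 73.6 and 636.5 ± 56.9 (mean ± SD, n = 3 each), and the log2 fold change was 0.64 ± 0.12 with an adjusted p of 0.0991 in limma. nas-36 had 103.3, 146.8 and 84.5 in hs::ΔNTbar-1 animals and 107.2, 86.6 and 116.7 in hs::control animals. These overlapped, and the log2 fold change was 0.07, with a 95% interval of -0.43 to 0.58. nas-38, which bears on the quiescence of larvae during lethargus before the molt, had 183.0, 306.8 and 247.3 in hs::ΔNTbar-1 animals and 364.9, 236.5 and 399.8 in hs::control animals. The log2 fold change of -0.41 had an adjusted p of 0.551 in limma, and it was -0.23 without hs::ΔNTbar-1 array 1, -0.27 without control array 3 and -0.63 without control array 2. nas-33 was nearly level, at 67.4, 75.0 and 87.4 against 84.8, 74.8 and 87.2 in hs::control animals, a log2 fold change of -0.09 that lay between -0.17 and -0.02 with 1 array left out. The probe sets of nas-9, nas-15, nas-36 and nas-37 are of a type that can bind several transcripts.

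Subgroups IV and VI had no gene separated in either direction, beside 11% upward and 10.5% downward of all genes. nas-31 had 327.2, 540.1 and 471.5 in hs::ΔNTbar-1 animals and 554.4, 500.7 and 571.5 in hs::control animals (a log2 fold change of -0.30, adjusted p of 0.578 in limma), and was at -0.098 without hs::ΔNTbar-1 array 1. nas-32 was at -0.02, with -0.18 for its other probe set. nas-39, the only tolloid-type member, had 74.1, 27.2 and 90.6 against 60.6, 69.5 and 77.8 in hs::control animals, with a log2 fold change of -0.19 and a 95% interval of -1.01 to 0.63.

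**Figure D2:**
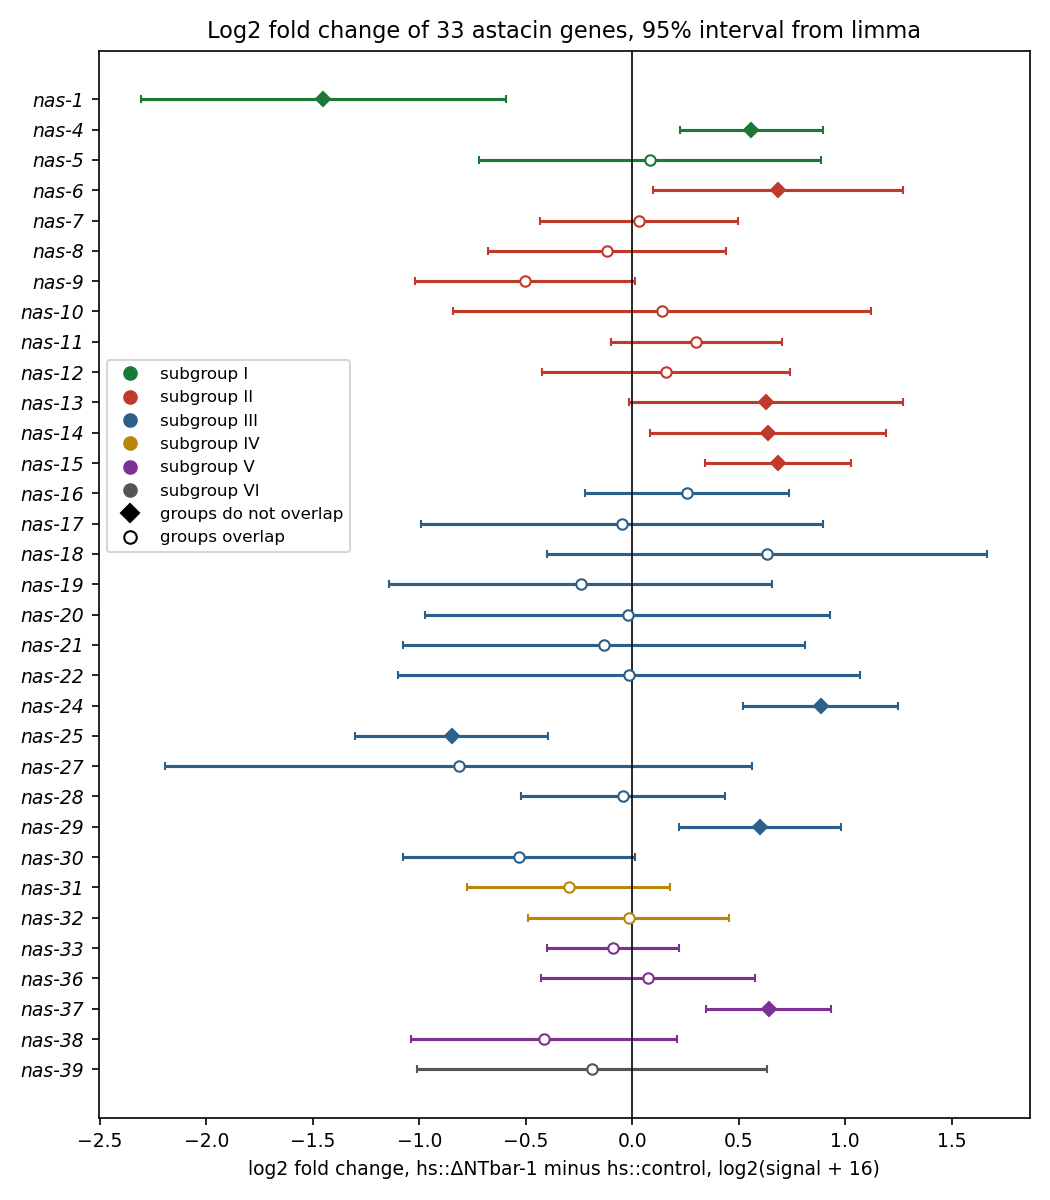
Log2 fold change (hs::ΔNTbar-1 minus hs::control, log2(signal + 16), x axis) of the 33 nas genes in the order of their numbers, with limma's 95% interval, coloured by subgroup, and filled diamonds where the arrays of the groups did not overlap. The diamonds lie between 0.56 and 0.88 on the positive side and at -0.85 and -1.45 on the negative side, and the intervals of 23 genes with open circles come from overlapping groups.

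By chromosome, 11 of the 33 nas genes are on V, 8 on X, 4 each on II and IV, and 3 each on I and III. Of the 8 on X, 5 were positive and 3 were separated upward (nas-13, nas-15 and nas-37), 37.5% beside 11% of all genes, with a median of 0.22. On V, 3 of 11 were positive and 1 was separated upward (9.09%), with a median of -0.02, and 8 of those 11 were dim. The nas genes of V and X differ in subgroup and brightness too, so these counts are a description.

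Some nas genes passed limma's test under 3 of the alternatives. When probe sets whose mean signal was under the 40th percentile were left out, 17 nas genes remained. Then 3 were higher in hs::ΔNTbar-1 animals at an adjusted p under 0.05 in limma, namely nas-37 (0.0218), nas-15 (0.0281) and nas-4 (0.04996), and 2 were lower, namely nas-25 (0.0342) and nas-1 (0.0448). Of the 10175 genes in that fit, 3.04% were higher and 1.97% lower. With a trended and robust variance the same 3 were higher (nas-37 at 0.0096, nas-15 at 0.0121 and nas-4 at 0.0303) and nas-1 was lower (0.0379), beside 2.12% and 1.81% of all genes. With a pseudocount of 64, nas-37 (0.0345) and nas-15 (0.0478) were higher, beside 1.19% of all genes. The fold changes of nas-15, nas-37 and nas-4 moved little between these settings, and those of nas-1 and nas-25 shrank to -0.99 and -0.60 with the pseudocount of 64. nas-24, with the lowest adjusted p at a pseudocount of 16, was not among the genes measured in the filtered fit.

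**Figure D3:**
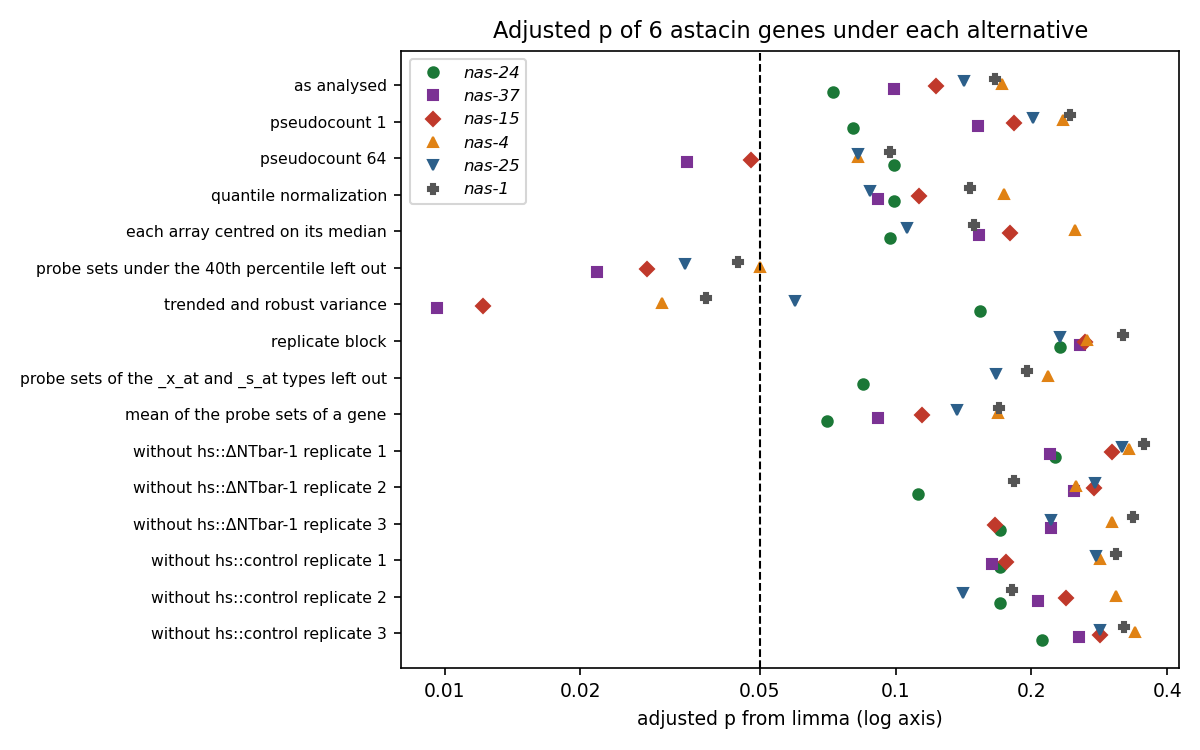
Adjusted p from limma (log axis, dashed line at 0.05) of nas-24, nas-37, nas-15, nas-4, nas-25 and nas-1 under each setting, one row per setting. The points left of the line are those of the filter on dim probe sets, the trended and robust variance and the pseudocount of 64, and with any array left out all points lie at 0.112 or above.

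The 3 astacins that go by another symbol all had lower signals in hs::ΔNTbar-1 animals, and in each the groups did not overlap, as in 10.5% of all genes. By domain layout toh-1 belongs to subgroup III and the other 2 to subgroup V. dpy-31, the procollagen C-proteinase that cuts the cuticle collagen SQT-3, had 862.2, 756.7 and 726.8 in hs::ΔNTbar-1 animals and 1176.5, 1075.5 and 1072.4 in hs::control animals. The difference was -0.50 ± 0.12 on the log2 scale with an adjusted p of 0.158 in limma, and its other probe sets gave -0.60 and -0.27. hch-1, the hatching enzyme, which is also needed for migration of the Q neuroblasts, was dim, at 23.8, 12.9 and 8.4 against 41.7, 35.8 and 55.2 in hs::control animals (a log2 fold change -0.97, adjusted p of 0.147 in limma). toh-1, a tolloid homolog, had 253.8, 298.1 and 331.7 against 604.8, 374.0 and 542.2 in hs::control animals (a log2 fold change -0.73, adjusted p of 0.213 in limma). Its other probe sets disagreed, at 0.06 and -0.37. As for the nas genes, 0 of the 3 passed limma's test at an adjusted p under 0.05, and all 3 were lower at an unadjusted p under 0.05, beside 6.69% of all genes.

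Genes that work beside the astacins at the cuticle had positive medians, and none passed limma's test. Of 12 genes for procollagen processing, cross-linking and substrates, 9 were positive with a median of 0.27, and 5 were separated upward and 3 downward (41.7% and 25%, beside 11% and 10.5% of all genes). Those upward were sqt-1 (0.77), rol-6 (0.58), phy-2 (0.43), sqt-3 and bli-3 (0.25). Those downward were mlt-7 (-0.76), tsp-15 (-0.43) and doxa-1 (-0.38), and the other mlt-7 probe set was at -0.45 with overlapping groups. The collagen sqt-3 had 34236.6, 30498.3 and 31075.7 in hs::ΔNTbar-1 animals and 28110.7, 24589.5 and 25097.3 in hs::control animals (a log2 fold change 0.30, adjusted p of 0.334 in limma). Its other probe set was at 0.18 with overlapping groups. Of 16 molting genes, 13 were positive with a median of 0.29, 7 were separated upward (43.8%) and 1, the fibrillin homolog fbn-1, downward. The other fbn-1 probe set was at 0.09 with overlapping groups. Other probe sets of mlt-9, mlt-10, noah-1 and ptr-4 were at 0.69, 0.90, 0.32 and 0.22 without overlap. Those of lrp-1, mlt-11, lin-42, nhr-23 and nhr-25 overlapped. mlt-10 met the study's criteria as higher, with 1414.5, 1039.5 and 890.9 against 640.4, 466.5 and 400.4 in hs::control animals (a log2 fold change 1.13, adjusted p of 0.130 in limma). The 17 other extracellular metalloproteases and inhibitors had a median of 0.00, with 2 separated upward and 1 downward (11.8% and 5.88%). In these lists limma called 0 genes at an adjusted p under 0.05. At an unadjusted p under 0.05, 4 procollagen, 6 molting and 1 other metalloprotease genes were higher, and 2, 1 and 0 of them were lower, beside 7.25% and 6.69% of all genes.

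Tissue markers give the frame for whole-animal signals. Of 6 hypodermal markers measured (dpy-2, dpy-3, dpy-7, dpy-8, elt-1 and elt-3), 4 were positive, with a median of 0.05 and a summed signal of 12166.1 to 15441.0 in hs::ΔNTbar-1 animals and 11282.9 to 12937.3 in hs::control animals. Among them 1, dpy-3, was separated upward at 0.50, and 1, elt-3, downward at -0.56 (16.7% each, beside 11% and 10.5% of all genes). The other elt-3 probe set was at -0.10 with overlapping groups. For dpy-2, the probe set used was at 0.03 with overlapping groups, and the other was at 0.36 without overlap. Of 7 intestinal markers 6 were negative, with a median of -0.14 and sums of 41536.6 to 46008.3 and 47256.1 to 48336.8 in hs::ΔNTbar-1 and hs::control animals. In this list 1, act-5, was separated upward at 0.12, and 1, pept-1, downward at -0.64 (14.3% each, beside 11% and 10.5% of all genes). The 4 body wall muscle markers had a median of 0.09 and the 5 of embryo and germ line 0.04. None of these markers was at 0 on any array. Their part in the nas gene values, and that of a difference in progress through the molt between the strains, was not tested.

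**Figure D4:**
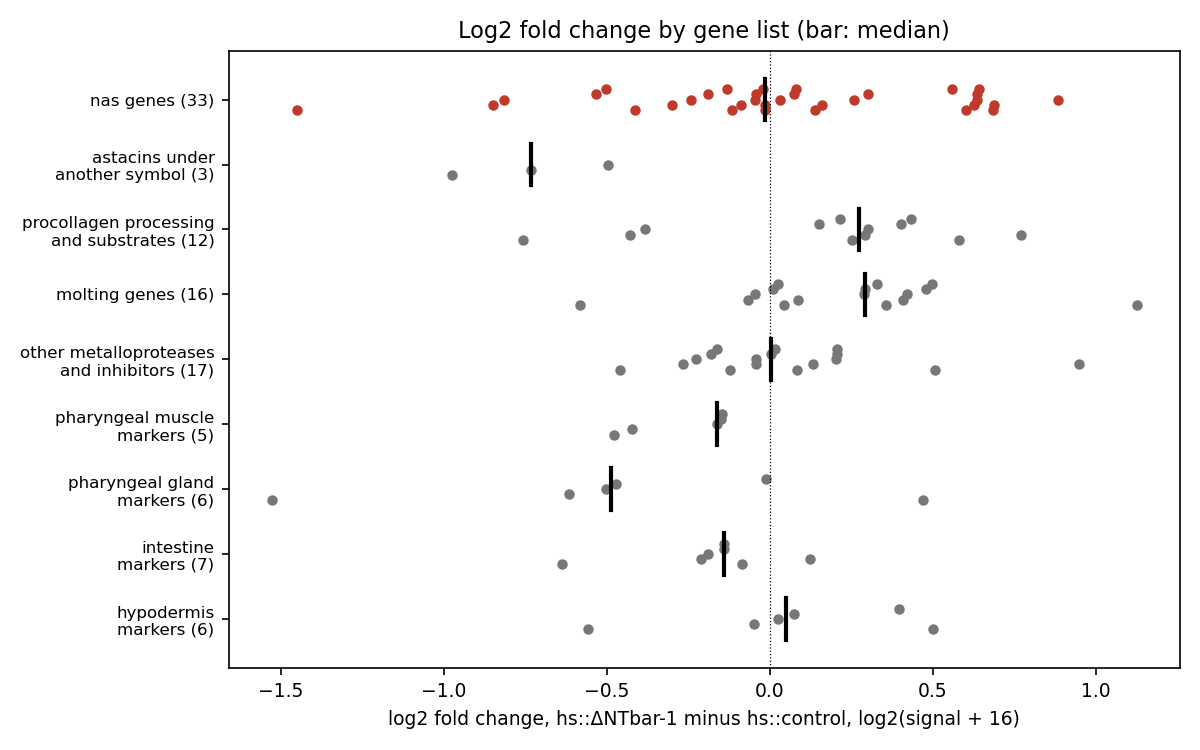
Log2 fold change (hs::ΔNTbar-1 minus hs::control, log2(signal + 16), x axis) of each gene in the nas family (red) and in lists of related genes and tissue markers (grey), with a black bar at each list's median. The nas genes spread from -1.45 to 0.88 around a median of -0.02, and the medians of the pharyngeal gland markers and of the astacins under another symbol lie at -0.49 and -0.73.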

How the data were processed

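Total RNA of 6 whole-animal samples was hybridized, 1 per array. The labels give 6 µg of RNA extracted with Trizol, and the methods 5 µg and a QIAGEN kit. The study calls the samples biological replicates. The table that the authors deposited gives linear signal intensity for 22625 probe sets. MAS5 and Partek are named in the submitters' processing notes, and RMA in the methods, but the values are not on RMA's log2 scale and all arrays have the same trimmed mean (494.1 to 494.4 over the probe sets tested), so they were read as scaled MAS5 signal. The table has 0 columns of other samples, and at most 0.297% of values were identical between arrays.

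The 77 control probe sets were left out. Of the 22548 tested, 20766 name 1 gene and 887 several. Chromosomes and gene order are from the RefSeq table of WBcel235. Values were log2(signal + 16), with no other normalization or filter, fitted by limma 3.58.1 (lmFit, then eBayes, run in R 4.3.3), two-sided, with Benjamini-Hochberg adjustment over all probe sets. The number of arrays limits the precision. The steps were tested on simulated arrays. Full values are given for genes that limma or the study's criteria called, the largest changes without overlap, the brightest genes and those with a known role. The nas genes, subgroups and other lists were chosen with earlier results of these data known.

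Alternatives were pseudocounts of 1 and 64, quantile normalization, centring on the median, a filter under the 40th percentile, a trended and robust variance, a replicate block, averaging a gene's probe sets, dropping the probe set types that may bind several transcripts, and dropping each array. The ratio of mean signals was added after seeing the data.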

Additional observations from a re-analysis of the deposited data

How the results depend on the processing

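Counts of nas genes at an adjusted p under 0.05 in limma (0 higher, 0 lower) became 2 higher with a pseudocount of 64, 3 higher and 2 lower when dim probe sets were left out, and 3 higher and 1 lower with a trended and robust variance. They stayed at 0 in each of the other alternatives and without any 1 array. By the study's criteria 1 gene (nas-24) was higher with a pseudocount of 1, and 0 were lower with a pseudocount of 64. Leaving out 1 array gave 0 to 1 higher (nas-24, without hs::ΔNTbar-1 array 2) and 0 to 1 lower. Genes separated upward numbered 5 in the filtered fit and 8 to 10 without 1 array. They numbered 6 without probe sets that can bind several transcripts, a fit that lacks nas-15 and nas-37. Those separated downward were 2 to 6, with 6 without hs::ΔNTbar-1 array 2 and 5 without control array 2, and fewer arrays make separation easier. The median of the 33 was between -0.034 and 0.15 without 1 array.

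Over all probe sets, 92 were higher and 60 lower in limma. These counts were 51 and 38 with a pseudocount of 1, 246 and 143 with 64, 381 and 254 in the filtered fit, 451 and 382 with the trended and robust variance, 55 and 34 without probe sets that can bind several transcripts, and 13 to 23 and 10 to 22 without 1 array. The cause of these shifts was not tested. The filtered fit and the fit without probe sets that can bind several transcripts both test fewer probe sets. Leaving out an array leaves fewer samples.

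Replicate numbers are shared between the groups. Deviations from the group mean correlated weakly between same-numbered arrays (r = 0.0659, -0.0211 and 0.0647 for numbers 1, 2 and 3). Between differently numbered arrays r was -0.0908 to 0.026. Correlations this weak cannot show whether the samples were paired. With the replicate block limma called 0 probe sets higher and 2 lower, and 0 nas genes met the study's criteria as lower.

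The direction held for 19 nas genes in every alternative in which they were measured. Of these, nas-9, nas-15 and nas-37 were absent from the fit without probe sets that can bind several transcripts. The filtered fit lacked nas-13, nas-14, nas-16, nas-18, nas-24 and nas-27. With 1 array left out, the log2 fold change crossed 0 in 14 genes whose groups overlapped: nas-5 (-0.29 to 0.39), nas-7 (-0.16 to 0.15), nas-8 (-0.29 to 0.092), nas-10 (-0.33 to 0.38), nas-12 (-0.034 to 0.34), nas-17 (-0.42 to 0.18), nas-19 (-0.50 to 0.16), nas-20 (-0.34 to 0.30), nas-21 (-0.42 to 0.28), nas-22 (-0.28 to 0.50), nas-28 (-0.20 to 0.058), nas-32 (-0.12 to 0.20), nas-36 (-0.12 to 0.23) and nas-39 (-0.45 to 0.21). nas-22 was also at 0.22 with a pseudocount of 1 and 0.071 as the mean of its probe sets, and nas-20 at 0.026 after quantile normalization. As ratios of mean signals, nas-5 was at -0.020 and nas-17 at 0.014 on the log2 scale. The median of all genes moved by at most 0.03 in size under any scaling. The SE of the log2 fold change was between 0.13 (nas-33) and 0.57 (nas-27) in the 17 dim nas genes. In the 16 brighter ones it was between 0.12 (nas-37) and 0.35 (nas-1). The part of low signal in this precision was not tested.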
